A study of Coprinopsis cinerea with 4 samples.

Results

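Short orthologous regions are small stretches of the genome of the mushroom Coprinopsis cinerea that lie within genes and are classed as conserved. Of them, 864 were followed through 2 stages of its life. They were chosen by position and length alone: rows that the deposited table classes as orthologous, with an end less than 900 bp beyond the start, and not within 100000 bp of a centromere row or of the outermost rows of a chromosome. They are 864 of 5830 orthologous regions, of 14514 rows for genomic elements and of 27856 rows in all. A further 79 regions under 900 bp were left out for their position, 22 near chromosome ends and 57 near centromeres. RNA came from oidia and from hyphae of the strain okayama7#130, with 2 libraries of poly(A)-selected RNA for each stage. The study concerns TET/JBP proteins, enzymes that oxidise methylated bases in DNA, and its RNA arm compares the stages; no treatment or further allele is named. Oidia libraries were made with a SOLiD kit and hyphae libraries with an Illumina kit, so no difference reported below can be assigned to stage rather than kit, which cannot be told apart. Whether replicates are separate cultures is not stated in the labels, and p-values therefore rest on library-to-library spread alone.

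Oidia are asexual spores of a single cell that the vegetative mycelium sheds, and hyphae are the filaments by which that mycelium grows and feeds. Orthologous regions have a counterpart in other species, and the class name is the table's own. In fungi, short conserved genes commonly encode small proteins, such as those of ribosomes, histones, mitochondrial complexes and the ubiquitin system. No product name was at hand for any of these genes, so the regions are named by the locus identifier of the gene around them and no role is assigned.

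Almost every region lay inside the span of 1 gene. Only the starts and ends of genes were compared, so coding parts and introns within a region were not examined. In the gene list of the RefSeq assembly CC3, 863 of the 864 regions lay inside exactly 1 gene each, all 863 of them different and protein-coding; the remaining region lay inside more than 1 gene model. The deposited table names no genome build, and none of the list's coordinates are given here. In 478 regions the gene's span differed from the region by exactly 3 bp at 1 end, the length of a stop codon, and in 385 the gene model ran further, by a median of 214 bp. Region lengths ran from 198 to 900 bp, with a median of 686 bp. The length was a multiple of 3 in 334 regions (38.7%), as an uninterrupted reading frame must be, and not in the other 530. Among arbitrary lengths 1 in 3 is a multiple of 3, so the 334 are not taken to lack introns. Only 1 region, in CC1G_04409, overlapped another element row, a repeat.

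The libraries held 4586306 and 3546635 gene reads for replicates 1 and 2 of hyphae, and 7519091 and 6128727 for those of oidia. The rows of the short orthologous regions held 357572, 278407, 382437 and 306685 reads in the same order; element rows overlap gene rows, so a read can be counted in both. The median number of reads per region was 154 and 116 for hyphae, against 57.5 and 43 for oidia. Levels are given as reads per kb of region and per 1000000 of the library size, scaled by trimmed mean of M-values (TMM) factors from the genes, and are called scaled reads per kb. In bulk RNA, fewer cells with a transcript and less of it per cell cannot be told apart.

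Almost every short orthologous region was read in hyphae, and most were read in oidia. At least 1 read was found in 99.1% ± 0.491 of the 864 regions in hyphae and in 93.7% ± 0.246 in oidia (SD, n = 2 each). Each of the 828 regions with an oidia read also had a read in hyphae. There were 32 regions with reads in hyphae alone, and 4 with no read in any library, in the genes CC1G_15307, CC1G_12383, CC1G_13425 and CC1G_11952. Zero reads allows up to 3 reads over a stage, which is 0.376 CPM in oidia and 0.216 CPM in hyphae and covers counting error only. Short regions of the other classes more often lacked an oidia read: 426 of 1319 orphan regions and 389 of 762 paralogous regions under 900 bp, with the same position rule, had no oidia read, against 36 of 864 orthologous ones (4.17%). Orthologous regions of 900 bp or more lacked one less often, in 87 of 4454 (1.95%). Over all element rows it was 3483 of 14514 (24.0%).

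Short orthologous regions were read more densely than long ones in each library. Their median level was 30.3 and 30.8 scaled reads per kb for replicates 1 and 2 of hyphae, and 20.9 and 19.1 in oidia. Orthologous regions of 900 bp or more had medians of 12.5 and 12.5 in hyphae and 11.8 and 11.7 in oidia. The ratio of the medians, which does not depend on how libraries are scaled, was 2.42 and 2.47 in hyphae and 1.77 and 1.64 in oidia. The ratio was thus higher in both hyphae libraries than in both oidia libraries, but with 2 libraries against 2 an exact permutation test cannot go below p = 0.333 (two-sided). By the notes deposited with the table a read counts for any region it overlaps, which raises the density of short regions most. With 100 bp added to every length, a value chosen after the data were seen because no label states the read length, the ratios were 2.20 and 2.21 in hyphae and 1.60 and 1.44 in oidia.

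Density fell with length on both sides of 900 bp, in hyphae from each length bin to the next. In hyphae the median level was 49.6 ± 1.14 scaled reads per kb in the 22 regions under 300 bp, 37.3 ± 0.568 in the 276 of 300 to under 600 bp and 27.7 ± 0.563 in the 566 of 600 to under 900 bp (SD, n = 2 each). Beyond the limit it was 15.6 ± 0.182 at 900 to under 2000 bp, 10.9 ± 0.0236 at 2000 to under 4000 bp and 7.26 ± 0.252 at 4000 bp or more (SD, n = 2 each). Oidia began as high, at 51.5 ± 7.05 under 300 bp, and then ran at 20.5 ± 1.52, 18.9 ± 1.43, 12.5 ± 0.169, 10.7 ± 0.0279 and 11.8 ± 0.275 in the same order (SD, n = 2 each). As a ratio of the highest to the lowest median, the range over length was therefore wider in hyphae than in oidia. In scaled reads per kb the ranges of the stages were close. Just inside the limit, the 205 regions of 800 to under 900 bp had medians of 29.2 in hyphae and 20.6 in oidia, and just outside it the 240 of 900 to under 1000 bp had 21.7 and 15.6.

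**Figure D1:**
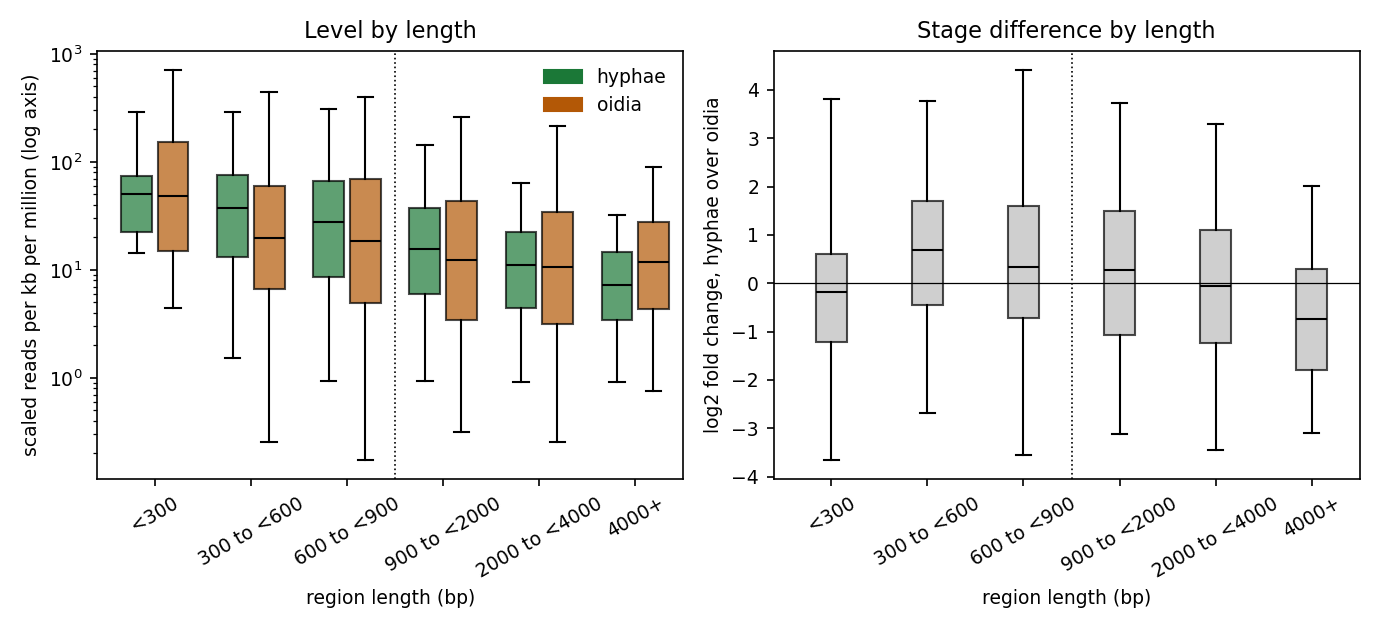
Left, level in scaled reads per kb (log axis) of orthologous regions by length, in hyphae (green) and oidia (orange), as the mean over the 2 libraries of a stage. Right, log2 fold change of the tested regions, hyphae over oidia. Boxes show quartiles and median, whiskers the 5th and 95th percentiles, and the dotted line the limit of 900 bp. The medians of these hyphal levels fall from 50.2 under 300 bp to 7.21 at 4000 bp or more.

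Median levels differed with the gene model around a region. The 385 regions whose gene ran beyond a stop codon had a median of 50.4 ± 1.08 scaled reads per kb in hyphae and 41.0 ± 0.384 in oidia (n = 2 libraries each, SD). The 478 regions whose gene had no such sequence had 18.3 ± 0.388 and 12.0 ± 0.581 (SD, n = 2 each). All 4 regions without any read were among the 478. Annotated sequence beyond the coding part is often drawn from sequenced transcripts, and its part in this difference was not tested.

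Reads on short orthologous regions were concentrated in far fewer regions in oidia than in hyphae. To reach 50% of these reads, 46 and 47 regions sufficed for replicates 1 and 2 of hyphae, and 12 and 12 in oidia. The 10 leading regions of a library held 24.9% ± 0.0543 of these reads in hyphae and 48.0% ± 0.0997 in oidia (SD, n = 2 each). A single region, in CC1G_15006, took 21.9% and 21.2% of them in oidia replicates 1 and 2 and 0.224% and 0.229% in hyphae. The stages did not overlap in any of these measures, which are not given for longer orthologous regions. Concentration in oidia was not particular to short regions. The 20 leading orthologous regions described in the next paragraph, 3 of them short, held 43.6% of orthologous reads in oidia and 7.59% in hyphae. Of the 10 regions with the highest level in each stage 1 was shared, of the highest 50 there were 20, and of the highest 100 there were 48. Across all 864 regions the rank correlation of the stages' levels was 0.68, and across orthologous regions of 900 bp or more it was 0.66; regions share libraries and are not replicates.

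Their weight among all orthologous regions differed between the stages. Short regions are 14.8% of orthologous regions by number and 4.86% by length, and took 13.8% and 14.0% of orthologous reads for replicates 1 and 2 of hyphae. In oidia they took 8.37% and 8.08%. Without CC1G_15006 the oidia shares were 6.66% and 6.48%. The gap was smaller without a few regions. The 10 orthologous regions with most reads in each stage, 20 in all and 3 of them short, held 43.6% ± 1.02 of orthologous reads in oidia and 7.59% ± 0.00108 in hyphae (n = 2 libraries each, SD). With these 20 left out, a choice made after the data were seen, short regions took 13.8% ± 0.143 in hyphae and 11.4% ± 0.00810 in oidia (SD, n = 2 each). Shares within a library do not depend on scaling.

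**Figure D2:**
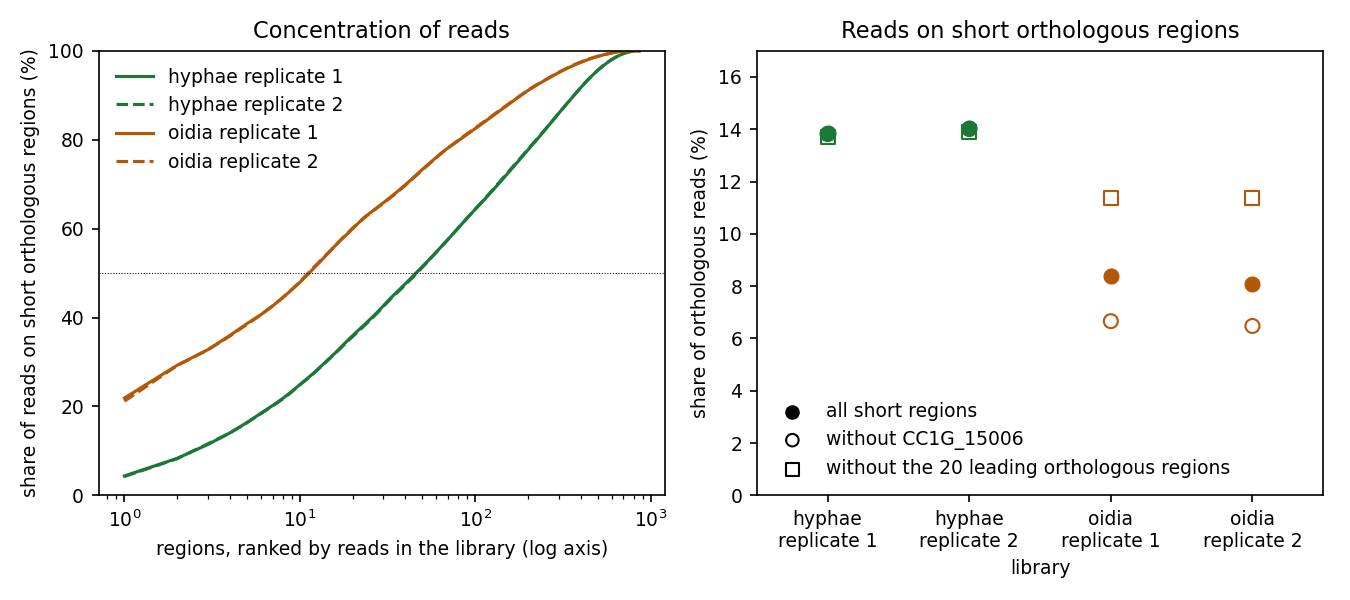
Left, cumulative share of the reads on 864 short orthologous regions in each library, against the number of regions ranked by reads (log axis); the dotted line marks 50%, reached with 46 and 47 regions in hyphae and 12 and 12 in oidia. Right, share of all orthologous reads that fell on short regions, per library, for all regions (filled), without CC1G_15006 (open circles) and without the 20 leading orthologous regions (open squares). In every version both oidia libraries lie below both hyphae libraries.

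Most short orthologous regions differed between the stages, as most rows of the table did. Of 864 regions 781 had enough reads to test, and 654 were called at an adjusted p under 0.05 (edgeR, quasi-likelihood test, Benjamini-Hochberg). That is 83.7%, against 84.1% of the 9622 element rows tested and 84.2% of orthologous regions of 900 bp or more, so the share called by this test is near the background. In 704 of the 781, or 90.1%, the libraries of the stages did not overlap, against 90.7% of all tested rows and 90.6% of the longer orthologous regions. By the authors' deposited table, an adjusted p under 0.05 was reached in 552 of the 860 short regions with a value, and 542 of these were also called here. That is 64.2% in the authors' deposited table, above the 52.9% of all its element rows with a value and below the 70.9% of its orthologous regions of 900 bp or more.

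More short regions were higher in hyphae than in oidia, with a lean that depended on scaling and on read depth. Of the 654 called, 398 were higher in hyphae and 256 lower, that is 51.0% and 32.8% of those tested, against 44.1% and 40.0% of all tested element rows. Orthologous regions of 900 bp or more had 42.5% higher and 41.7% lower of 4253 tested. The median log2 fold change (hyphae over oidia) was 0.44 in short regions, 0.12 over all tested element rows and 0.03 in the longer orthologous regions. Scaling by total gene counts gave 666 higher and 88 lower, and moved the median of all tested rows to 1.79 and that of short regions to 2.04. With a mean normalized count of at least 100 the split was 191 to 188, and the medians were 0.05 in short regions, -0.37 in longer orthologous regions and -0.37 over all rows. Relative to all tested rows, the median of the short regions was therefore higher under each of these settings.

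The difference also followed length. The median log2 fold change of tested regions was 0.70 at 300 to under 600 bp, 0.34 at 600 to under 900 bp, 0.27 at 900 to under 2000 bp, -0.06 at 2000 to under 4000 bp and -0.74 at 4000 bp or more. This order of the 5 bins was the same under TMM, DESeq2 size factors, upper quartiles, total counts, the count minimum of 100 and without each library in turn. The 21 tested regions under 300 bp stood outside it, at -0.19. Their median changed sign without hyphae replicate 1, to 0.15, with upper quartiles, to 0.08, and with total counts, to 1.36, and was 0.00 without oidia replicate 1. It was further below 0 without hyphae replicate 2, at -0.40, and without oidia replicate 2, at -0.38. With the count minimum of 100, which left 10 of these regions, it was -1.12. The number of reads per region also rose with length, from a median of 361.5 over the 4 libraries at 300 to under 600 bp to 1130 at 4000 bp or more. Library kit and stage cannot be told apart in this trend.

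Large changes made up a smaller share of short regions than of all rows, and a share close to that of longer orthologous regions; neither difference was tested. At least 4-fold changes were called for 240 of the 781 regions, or 30.7%, against 35.8% of all tested element rows and 28.5% of orthologous regions of 900 bp or more. Of these 153 were higher in hyphae and 87 in oidia, that is 19.6% and 11.1%, against 19.8% and 16.0% of all rows and 15.0% and 13.5% of the longer orthologous ones. At least 16-fold changes were found for 41 regions higher in hyphae (5.25%, background 6.57%) and 24 higher in oidia (3.07%, background 4.06%). At 64-fold or more there were 10 and 8 of the 781 regions, both smaller shares than the background. Of the 9622 element rows tested, 244 and 114 passed (2.54% and 1.18%). Of the 4253 longer orthologous regions tested, 39 and 22 did. Short regions of the other classes changed more widely, with at least 4-fold changes in 49.0% of 610 tested orphan and 68.3% of 268 tested paralogous regions under 900 bp. Only 46.2% and 35.2% of those were tested, against 90.4% of the orthologous ones, so these shares cover their more abundant part.

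**Figure D3:**
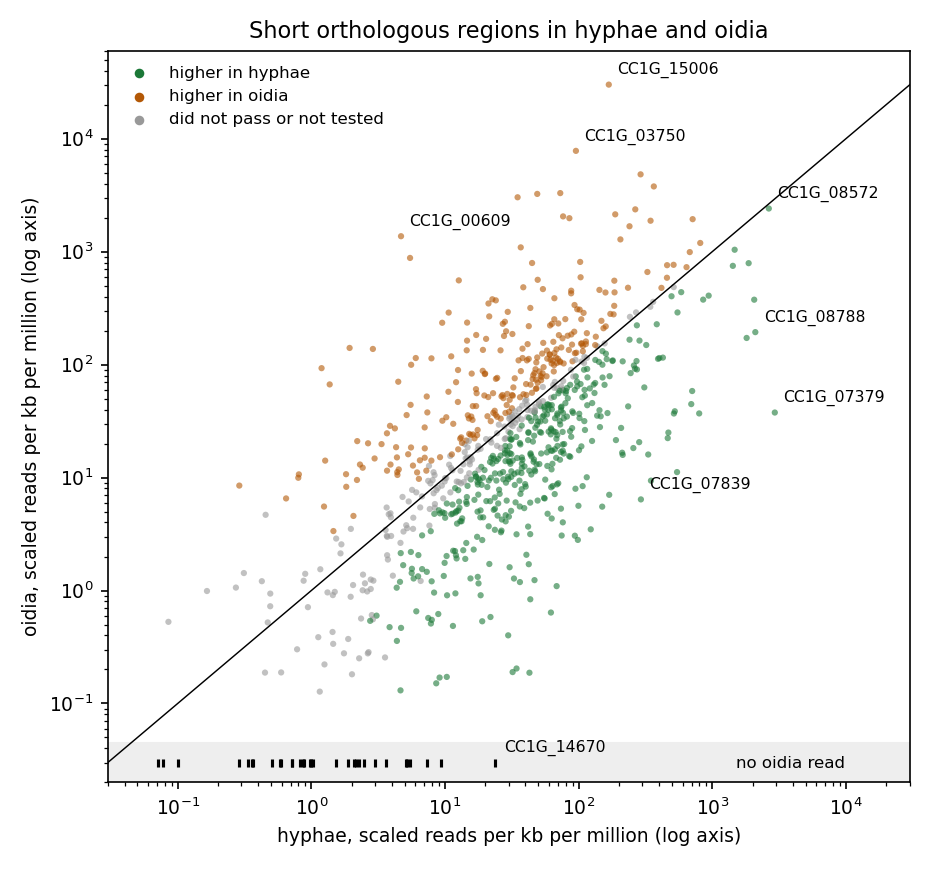
Level of each short orthologous region in hyphae and in oidia, as scaled reads per kb (both axes log, mean of 2 libraries). The 32 regions with reads in hyphae alone stand as ticks in the grey band, and the 4 without any read are not drawn. Green regions passed as higher in hyphae (398), orange as higher in oidia (256), and grey did not pass or were not tested. CC1G_15006 lies at 30090 in oidia and 168 in hyphae.

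The most abundant short region of either stage was CC1G_15006 in oidia, on chromosome 8 from 1288166 to 1288783 (618 bp; all coordinates are as in the deposited table, which names no build). It had 83686 and 64950 reads in oidia replicates 1 and 2 and 801 and 638 in hyphae. In scaled reads per kb this is 30090 ± 714 in oidia and 168 ± 4.18 in hyphae (n = 2 libraries each, SD); the log2 fold change was -7.49 ± 0.08 (SE). Both oidia libraries stood far above both hyphae libraries.

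CC1G_03750, on chromosome 1 from 2173255 to 2174107 (853 bp), was the next most abundant in oidia, with 28232 and 24601 reads against 634 and 495 in hyphae. Its level was 7798 ± 453 scaled reads per kb in oidia and 95.4 ± 1.02 in hyphae (n = 2 libraries each, SD); the log2 fold change was -6.35 ± 0.08 (SE). The short orthologous region just before it, CC1G_03749, 522 bp away and picked after its values were seen, was also higher in oidia, at -3.51 ± 0.10 (SE).

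CC1G_00609 had the largest change towards oidia among short regions with a mean normalized count of at least 100. It lies on chromosome 1 from 3366586 to 3367464 (879 bp) and had 5383 and 4228 reads in oidia against 27 and 29 in hyphae. The log2 fold change was -8.21 ± 0.12 (SE). CC1G_00610 lies on the same chromosome from 3370187 to 3370876 (690 bp), and is among the 5 highest regions of oidia, with 10116 and 8040 reads there and 403 and 297 in hyphae. Its log2 fold change was -5.50 ± 0.08 (SE), so both regions, which bear consecutive identifiers, were higher in oidia. They are not among the adjacent pairs of short regions described below, and were set side by side after their values were seen.

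The other regions of the oidia side differed widely in level. CC1G_02960, on chromosome 8 from 1372707 to 1373498 (792 bp), drew 3266 and 2325 reads from the oidia libraries against 33 and 27 from hyphae; the log2 fold change was -7.33 ± 0.12 (SE). CC1G_04561, on chromosome 3 from 1154852 to 1155747 (896 bp), reached 3027 ± 86.4 scaled reads per kb in oidia against 34.9 ± 3.15 in hyphae (n = 2 libraries each, SD). CC1G_06955, on chromosome 6 from 686549 to 687039, is 491 bp long and reached 3242 ± 153 against 49.0 ± 1.79 (SD, n = 2 each). These regions were abundant in oidia and scarce in hyphae. CC1G_11374, CC1G_10658, CC1G_11327 and CC1G_08179 were also higher in oidia, at a lower level, with 66.7 to 140.4 scaled reads per kb in oidia and 1.19 to 2.89 in hyphae. Their log2 fold changes were -6.22, -6.14, -5.60 and -5.53. CC1G_11374 rested on 8 and 4 hyphal reads, and CC1G_08179 on 12 and 5.

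Of the 5 highest regions of oidia, CC1G_03598 and CC1G_10101 changed less. CC1G_03598, 324 bp on chromosome 9 from 1920901 to 1921224, drew 7126 and 5400 reads from the oidia libraries against 735 and 572 from hyphae; the log2 fold change was -4.06 ± 0.08 (SE). CC1G_10101, on chromosome 1 from 3803712 to 3804521 (810 bp), had 13457 and 10926 against 2292 and 1808, at -3.37 ± 0.07 (SE). Both were thus well read in hyphae too. The 10 regions named for the size of their change towards oidia had adjusted p of at most 1.19e-126 (edgeR). A small adjusted p was part of the rule that named them.

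In hyphae the most abundant short region was CC1G_07379, on chromosome 3 from 2033724 to 2034393 (670 bp). It had 15557 and 11778 reads for replicates 1 and 2 of hyphae and 126 and 78 in oidia, or 2934 ± 32.4 scaled reads per kb against 37.6 ± 6.87 (SD, n = 2 each). The log2 fold change was 6.27 ± 0.09 (SE). It was the only region both among the 5 highest of hyphae and among the 10 largest changes towards hyphae.

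The other highest regions of hyphae changed less, and they differed in what oidia held of them. CC1G_08788, on chromosome 1 from 3963813 to 3964523, drew 11250 and 9358 reads from the hyphal libraries against 600 and 497 from oidia; the log2 fold change was 3.44 ± 0.07 (SE). CC1G_03881, on chromosome 2 from 2469809 to 2470698, had 14218 and 11184 against 1469 and 1194, at 2.46 ± 0.07 (SE). CC1G_08250, 422 bp on chromosome 5 from 489760 to 490181, had 6237 and 4733 against 1408 and 1239, at 1.24 ± 0.07 (SE). All 3 were higher in hyphae in both libraries.

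CC1G_08572 was close to equally high in both stages. It is 433 bp long, on chromosome 9 from 2030145 to 2030577, and drew 9227 and 6743 reads from the hyphal libraries against 5131 and 3288 from oidia. Its levels were 2714 and 2579 scaled reads per kb in hyphae and 2677 and 2138 in oidia, so the libraries of the stages overlapped. The log2 fold change was 0.13 ± 0.06 (SE; adjusted p = 0.0387, edgeR). It was -0.03 without oidia replicate 2 (adjusted p = 0.613, edgeR), and the row of the whole gene had -0.23, so no direction is read from it.

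Besides CC1G_07379, the regions with the largest changes towards hyphae at a mean normalized count of at least 100 had lower levels. CC1G_07358, on chromosome 3 from 1988438 to 1989232 (795 bp), drew 375 and 307 reads from the hyphal libraries against 2 and 2 from oidia; the log2 fold change was 6.55 ± 0.31 (SE). Its read ratio scaled to library size was 97.9, with a 95% exact (Clopper-Pearson) interval of 38.1 to 360.4 that covers counting error only. CC1G_08739, on chromosome 10 from 947064 to 947759 (696 bp), had 359 and 299 reads against 3 and 3, a scaled ratio of 63.0 (28.8 to 172.3). Both had very few oidia reads, which leaves the size of the fold wide.

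CC1G_09089 and CC1G_12718, both on chromosome 4, were better covered. CC1G_09089, from 719172 to 720064 (893 bp), drew 3909 and 2867 reads from the hyphal libraries against 46 and 34 from oidia; the log2 fold change was 5.60 ± 0.12 (SE). CC1G_12718, from 1050479 to 1051286 (808 bp), had 2210 and 1691 against 36 and 25, at 5.19 ± 0.13 (SE). The other regions named for this direction, CC1G_07839, CC1G_04975, CC1G_02351, CC1G_07080 and CC1G_09503, had log2 fold changes of 5.46, 5.19, 5.16, 5.08 and 4.91, with 8 to 22 oidia reads in total. CC1G_07080, with 16 and 6 oidia reads, was at 5.78 without oidia replicate 1. The rule that named these 10 required that the libraries of the stages not overlap and that the adjusted p be under 0.05. Neither is therefore separate support. The largest adjusted p among them was 3.02e-68 (edgeR). None of the 20 regions named for size of change lost its call or its direction under any scaling, filter or test tried, with the replicate block or without any 1 library. They were picked for large changes in these same libraries.

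**Figure D4:**
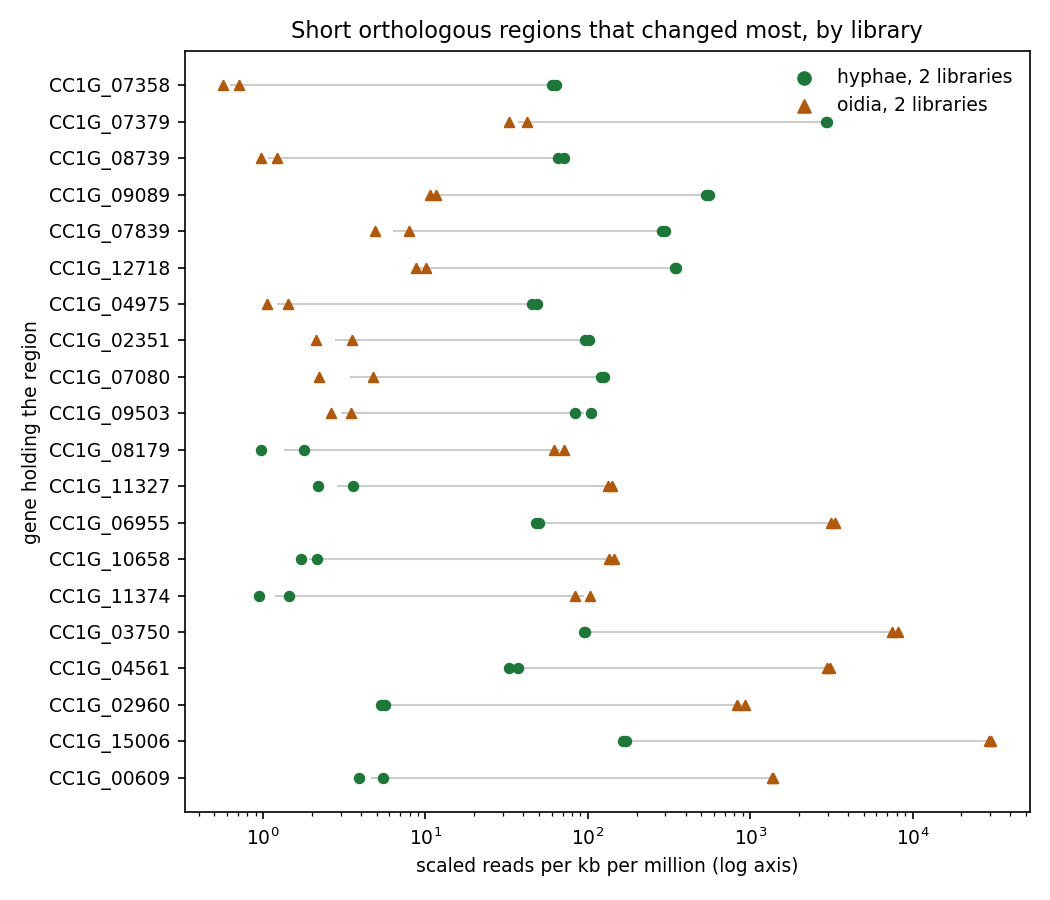
Level of the 10 short orthologous regions that changed most in each direction, in each library, as scaled reads per kb (log axis); circles are hyphae, triangles oidia, and grey lines join the stage means. From CC1G_07358 down to CC1G_09503 hyphae are higher, and from CC1G_08179 down to CC1G_00609 oidia are higher. The points of the stages do not overlap in any row, as the rule that named these regions required.

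Regions without an oidia read were mostly sparse in hyphae as well. The 32 regions held between 1 and 264 hyphal reads, with a median of 8.5, and 4 had enough reads to test. Those 4 lie above the median change of short regions both as fitted and at their bound, so that median is the same either way. CC1G_14670, on chromosome 5 from 2125454 to 2126241 (788 bp), drew 160 and 104 reads from hyphae and none from oidia, at least 50.5-fold higher against 3 reads over the oidia stage. CC1G_08571, on chromosome 9, had 63 and 37, at least 19.1-fold, and CC1G_07138, on chromosome 8, had 40 and 19, at least 11.3-fold. The density over the 32 regions together was 22.5 and 15.1 reads per kb for replicates 1 and 2 of hyphae. All 32 had a read in hyphae replicate 1 and 29 had one in both hyphae libraries. Repeat and centromere rows with no oidia read had 0.846 and 0.357 reads per kb; the 32 regions were selected for having hyphal reads, so the values are given side by side only. No region had reads in oidia and none in hyphae.

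The shortest regions with a mean normalized count of at least 100 moved in both directions. CC1G_14232, 198 bp on chromosome 3 from 2375240 to 2375437, drew 165 and 144 reads from the hyphal libraries against 135 and 117 from oidia; the log2 fold change was -0.50 ± 0.15 (SE, adjusted p = 0.000806, edgeR). The call was lost with upper quartiles, the DESeq2 test and without hyphae replicate 1, and the direction turned with total counts. CC1G_05284 (219 bp), CC1G_14412 (261 bp) and CC1G_05157 (264 bp) were also lower in hyphae, at -1.03, -1.21 and -1.36, and each turned with total counts, to 0.52, 0.33 and 0.19. CC1G_07839, 229 bp on chromosome 4 from 1203866 to 1204094, stood apart from them, with 537 and 395 hyphal reads against 8 and 4 of oidia. Its log2 fold change was 5.46 ± 0.23 (SE).

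Some abundant regions differed little between the stages. CC1G_14685, on chromosome 5 from 2371832 to 2372677 (846 bp), had 356 and 365 scaled reads per kb in hyphae and 379 and 339 in oidia. Its log2 fold change of 0.00 had an approximate 95% interval of -0.14 to 0.14 (adjusted p = 0.968, edgeR). CC1G_06281 and CC1G_12427 had 0.08 each, with intervals of -0.06 to 0.22 and -0.06 to 0.23 (adjusted p = 0.286 and 0.291, edgeR). In both, the hyphae libraries lay above the oidia libraries, at 350 and 337 against 325 and 324 for CC1G_06281. CC1G_12427 had 502 and 527 against 489 and 482. The whole-gene row had 0.40 for CC1G_06281 (adjusted p = 8.13e-10, edgeR) and 0.01 for CC1G_12427. Upper quartiles put the region of CC1G_06281 at 0.35 (adjusted p = 2.02e-05, edgeR). CC1G_09714 had -0.12, with an interval of -0.27 to 0.03 (adjusted p = 0.141, edgeR), and its oidia libraries, at 227 and 302, spanned its hyphae libraries, at 251 and 233. These intervals hold for TMM scaling; total counts put each of the 4 at 1.43 to 1.63. Among the 424 tested short regions with a mean normalized count of at least 100, the interval lay within 1.5-fold either way for 64, or 15.1%, against 16.3% of 2780 such longer orthologous regions.

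Short orthologous regions next to each other were compared for their direction. In 94 places 2 of them followed each other with no other orthologous, orphan or paralogous region between. Both were called in 59 of these pairs, and in 39, or 66.1%, both changed in the same direction; among pairs of longer orthologous regions it was 859 of 1474, or 58.3%. Where both regions changed at least 4-fold, the order was the opposite, with 4 of 7 short pairs and 125 of 180 longer pairs agreeing. Of all called regions, 60.9% of the short and 50.5% of the longer ones were higher in hyphae. The agreement that these shares alone would give was not computed. Pairs share libraries and chromosomes, and the difference in agreement was not tested. Examples, picked after their values were seen, went both ways. CC1G_03878 and CC1G_03879 on chromosome 2, 15 bp apart, had log2 fold changes of 2.86 and 2.84, and with no strand setting given their reads may not be separable. CC1G_08179, CC1G_08180 and CC1G_08181 follow each other on chromosome 5 and had -5.53, -2.82 and 2.17. CC1G_08571 and CC1G_08572, 577 bp apart on chromosome 9, had no oidia read and near equal levels, respectively.

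The lean towards hyphae varied between chromosomes. On chromosome 5, with 131 of the regions, 81 of 105 called regions were higher in hyphae and the median log2 fold change of tested regions was 1.09. On chromosome 7, with 59, it was 20 of 44, and the median was -0.21. Chromosomes 1, 2 and 3, with 156, 120 and 103 regions, had medians of 0.44, 0.40 and 0.26. Chromosomes 9 and 13 also leaned towards hyphae, at medians of 0.82 and 0.80, with 7 of 9 called regions higher on chromosome 13. Chromosomes 11 and 12 had medians of -0.14 and -0.08. Of all called element rows, on any chromosome, 52.4% were higher in hyphae. That share was not computed for the rows of each chromosome. These chromosomes were singled out after their values were seen, and the difference between chromosomes was not tested.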

How the data were processed

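RNA of 2 oidia and 2 hyphae libraries was analysed, with groups taken from sample titles. The authors deposited, per the accompanying notes, counts of reads that overlap each gene or element in each library. The tools named in the submitters' processing notes are Bowtie 0.12.7, TopHat and DESeq. Build, annotation, counter, strandedness and handling of multiply mapped reads were not given in the sources used here. Deposited mean signal per stage, the deposited fold ratio and the deposited log2 columns were not used for tests. The notes call the ratio hyphae over oidia, but in all 21769 rows with a finite value it is oidia over hyphae, so directions were taken from the counts. The deposited adjusted p-value of the authors' DESeq run was used for 1 comparison of counts.

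All 14514 element rows were fitted together with edgeR 4.0.16 (R 4.3.3), by the quasi-likelihood test, with filterByExpr, library sizes and TMM factors from 9866 genes, and Benjamini-Hochberg adjustment over the 9622 rows tested. Standard errors were derived from each F statistic and, like their 95% intervals, are approximate. Element rows overlap gene rows, so reads are counted in both. Named regions follow a rule: the 10 largest changes each way (adjusted p under 0.05, no overlap between stages, mean normalized count 100 or more), the 5 highest levels in each stage, the 5 smallest changes at a mean count of at least 1000, the 5 shortest at 100, and 3 each way with reads in 1 stage alone. Keyword lists by product name could not be evaluated, as the gene list used holds none. The regions and lists were chosen with earlier results of these data known.

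Replicates differed by more than sampling noise over these regions (chi-square per degree of freedom 1.33 in hyphae and 2.70 in oidia). The biological coefficient of variation, a common value fitted over all tested element rows and both stages, was 4.49%. A simulation of 14514 element rows, 200 of them changed, tested the fit. It recovered 46% of 50 rows changed 1.5-fold, 96% at 2-fold, 100% at 4-fold and 100% at 8-fold, with 2 false among 173 calls. The simulation took the fitted library scaling as true and gave all rows a common dispersion, so it cannot show errors of scaling. In the data far more rows differed, with 84.1% of tested element rows called. Alternatives were other scalings, DESeq2 1.42.0, other filters, lengths and positions, a replicate block and leaving out each library.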

Additional observations from a re-analysis of the deposited data

How the results depend on the processing

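The counts and the median of short orthologous regions moved with library scaling, with the low-count filter and with the length limit. Main values were 654 called (398 higher in hyphae, 256 lower), 240 changed at least 4-fold (153 and 87) and a median log2 fold change of 0.44. Total gene counts gave 666 higher and 88 lower, 446 at least 4-fold (414 and 32) and a median of 2.04. A mean normalized count of at least 100 gave 379 called (191 higher), 124 at least 4-fold (59 higher) and a median of 0.051. Both together, added after the data were seen, gave 400 called, 71 lower, 29 lower by at least 4-fold and a median of 1.60. A length under 600 bp gave 217 called (147 and 70), 74 at least 4-fold (51 and 23) and a median of 0.60, and one under 1200 bp gave 1223 (716 and 507), 440 (276 and 164) and 0.36; the count minimum and the lower limit hold fewer regions by construction, and the higher limit more. The median was 0.397 with DESeq2 size factors, 0.727 with upper quartiles, 0.474 with TMM factors from element rows, 0.4999 with the DESeq2 Wald test, 0.533 with no low-count filter and 0.399 with no region left out for position, where the SD over pairs of libraries was 0.0267. Without each library in turn, 582 to 642 regions were called (359 to 395 higher, 223 to 247 lower), 238 to 261 changed at least 4-fold (154 to 174 and 82 to 89), and the median was 0.44 to 0.49. The DESeq2 Wald test called 529.

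With the replicate number as a block 639 were called (390 and 249). Same-numbered libraries did not deviate together (correlation -0.0109 over 5092 element rows, across rows). With 2 libraries per stage, this cannot show whether same-numbered libraries share a culture.

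Named regions that turned were those near 0 or short. With total counts CC1G_05157 was 0.19, CC1G_05284 0.52, CC1G_09714 1.43, CC1G_14232 1.04 and CC1G_14412 0.33. CC1G_09714 was 0.15 with upper quartiles and -0.309 to 0.0794 without each library in turn. CC1G_14685 was -0.037 with DESeq2 size factors, -0.036 with the DESeq2 test and -0.0854 to 0.0961 without each library in turn, and CC1G_08572 was -0.0285 to 0.315 without each library in turn. The cause was not tested. Depth limits the folds of regions with few oidia reads.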

Other observations

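The row of a region and the row of the gene around it gave close but not identical values. Of 780 short orthologous regions where both were tested, 758 had the same sign, and the median absolute difference between the log2 fold changes was 0.04. The rows share most reads, so this is no independent support. The difference was over 1 in 15 regions, and in 6 both rows were called in opposite directions: CC1G_00567, CC1G_01701, CC1G_01737, CC1G_03416, CC1G_04316 and CC1G_08572. CC1G_01737 is the widest of these. Its region drew 94 and 88 reads from the hyphal libraries against 261 and 224 from oidia, more than its gene row, which drew 57 and 58 against 24 and 10. The log2 fold changes were -2.21 for the region and 0.97 for the gene row.

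Large changes towards oidia were rarer in short regions whose length is not a multiple of 3 than in those where it is. At least 4-fold higher levels in oidia were called in 48 of 296 tested regions with a multiple of 3, or 16.2%. In the others it was 39 of 485, or 8.04%. Of all tested element rows 16.0% passed, so the regions with a multiple of 3 were near the background. In hyphae the shares were 18.2% and 20.4%, against 19.8% of all tested element rows. A length that is a multiple of 3 does not show that a region lacks introns. This split by length was made after the data were seen, and the difference was not tested.

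Of the 79 short orthologous regions left out for their position, those near centromeres had a median log2 fold change of -0.29 over 56 tested and those near chromosome ends 0.65 over 18 tested.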
